A study of Rattus norvegicus with 6 samples.

Results

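The S100 genes examined here are 10 of the 35362 gene rows of an mRNA sequencing table from INS-1 cells: S100a1, S100a3, S100a4, S100a5, S100a6, S100a10, S100a11, S100a13, S100a16 and S100b. These cells come from a rat insulinoma, make and release insulin, and serve widely as beta cells in culture. The cells, at passages 75 to 80, carried a retroviral pMX-puro construct for Flag-tagged menin, the protein encoded by Men1 that acts in the nucleus on transcription. In 3 libraries the added menin was the S487A mutant, in which a serine is replaced by alanine and can no longer be phosphorylated. In the other 3 it was the S487D mutant, in which aspartate takes that place and brings a negative charge, as a phosphate would. Both groups overexpressed a mutant in a line for which no loss of its own Men1 is stated, both grew in the same RPMI1640 medium with serum, and no library without added menin was analysed here. Whether the transduced cells were pools or single clones, and whether the libraries came from separate cultures, is not given in the sources used here, so each p-value below reflects library-to-library spread that may be technical.

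The 10 genes were chosen from the family by name with their S487D and S487A levels already known, and the neighbours S100a3, S100a4, S100a5 and S100a6 were set apart because they were steeply lower in S487D. That contrast is therefore given for the S100 genes as a description, without a test. Tests are given for genes outside the family. The unit is RPKM, assigned reads scaled to gene length and to the depth of the library, so that levels can be compared between genes, and values of the form mean ± SD are over the 3 libraries of a group.

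S100 proteins are small vertebrate proteins with a pair of EF hands, the loop-and-helix motif that binds calcium. Most form dimers, and calcium binding exposes a surface that grips a target protein, such as an annexin, a cytoskeletal protein or an enzyme. Some are also released from cells, where the receptor RAGE, encoded by Ager, is the best known partner. In beta cells, calcium entry is the signal that releases insulin.

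The libraries held 9444801 to 10867549 assigned reads each, and for a gene 1 kb long a single read came to 0.092 to 0.106 RPKM. The floor of detection used below, 3 reads, was 0.276 to 0.318 RPKM for such a gene. Men1 was read at 71.2 to 76.7 RPKM in S487A and 103 to 119 RPKM in S487D, a sum of the line's own and any added rat transcript. All 10 beta cell markers found in the table reached 1 RPKM in at least 3 libraries, which fits the label of the line. Their summed level was 8809 to 9431 RPKM in S487A and 20890 to 22040 RPKM in S487D, a difference made almost wholly by the insulin gene Ins1 (4683 ± 292.2 and 16700 ± 551.3 RPKM). The other markers went both ways: 6 of the 10, Ins1 included, had a higher mean in S487D, and Chga, Neurod1, Nkx6-1 and Ucn3 a lower one. Of the 12527 genes that reached 1 RPKM in at least 3 libraries, limma called 5564 (44.4%) at an adjusted p under 0.05, 20.1% higher and 24.3% lower in S487D. Higher calls were thus 45.3% of all calls, and 55.4% after quantile normalization or 58.9% after median centring. The groups did not overlap for 54.6% of these genes.

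S100a3, S100a4, S100a5 and S100a6 lie side by side on the plus strand of rat chromosome 2, within 52.9 kb of the rn6 build. In all 4, each S487D library was below each S487A library, by 2.6-fold to 122.6-fold in mean RPKM. S100a1, S100a10 and S100a13, on the same chromosome, differed between the groups by no more than 1.305-fold. S100a11, S100a16 and S100b had 3 reads or fewer in every library.

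S100a4 (chr2:189997278-189999587) encodes a protein that binds non-muscle myosin and is known from motile and metastatic cells. Its level was 3330, 3209 and 3537 RPKM in the S487A libraries. In the S487D libraries it was 240.3, 264.7 and 219.9 RPKM. The groups were far apart, with the highest S487D library 12.1-fold below the lowest S487A library. The mean fell from 3359 ± 165.8 to 241.6 ± 22.4 RPKM (SD, n = 3), a 13.9-fold difference that reached 16.1 in the widest of the 9 pairs of libraries. It rested on 61135 reads in S487A and 4124 in S487D. By mean level S100a4 stood 4th of all genes tested in S487A and 271st in S487D.

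S100a6 (chr2:190007038-190008512) encodes calcyclin, which binds annexins and the calcyclin-binding protein Cacybp. It was read at 87.1, 82.0 and 98.7 RPKM in S487A and at 0.756, 0.814 and 0.616 RPKM in S487D. The S487D values were 4, 4 and 3 reads, at or just above the floor, against 451, 460 and 524 reads in S487A. The ratio of summed reads was 122.2, with an exact 95% interval of 68.1 to 245.4 that covers counting error only. On the log2(RPKM + 1) scale, which shrinks changes of low genes, this was the largest fall of all genes tested, at -5.70, and S100a6 reached the expression minimum through its S487A libraries alone.

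S100a3 (chr2:189955630-189996029) encodes a cysteine-rich protein best known from the cuticle of hair. Its S487A values were 49.4, 52.8 and 53.3 RPKM, and its S487D values 2.80, 3.01 and 2.87 RPKM. No library came between these narrow ranges, and the means of 51.8 ± 2.13 and 2.89 ± 0.109 RPKM (SD, n = 3) were 17.9-fold apart, or 16.4 to 19.0 over the pairs. The S100a3 row spans 40.4 kb and counts 4358 bases, against 516 to 584 for the other 3 genes, so its RPKM depends on that long gene model. It covers 2 further rows, LOC100910139 and LOC685396, both at 0 in all 6 libraries.

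S100a5 (chr2:190001633-190005877), whose protein binds calcium tightly and is known from olfactory neurons, changed least of the 4. Its level was 656.7, 648.0 and 718.7 RPKM in S487A and 262.4, 271.6 and 244.2 RPKM in S487D. The groups again did not overlap, but S100a5 kept a high level in S487D, where it ranked 249th of all genes tested. The means of 674.5 ± 38.6 and 259.4 ± 13.9 RPKM (SD, n = 3) were 2.6-fold apart. S100a5 lies between S100a4 and S100a6, so the size of the difference did not follow the order of the genes along the chromosome.

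**Figure D1:**
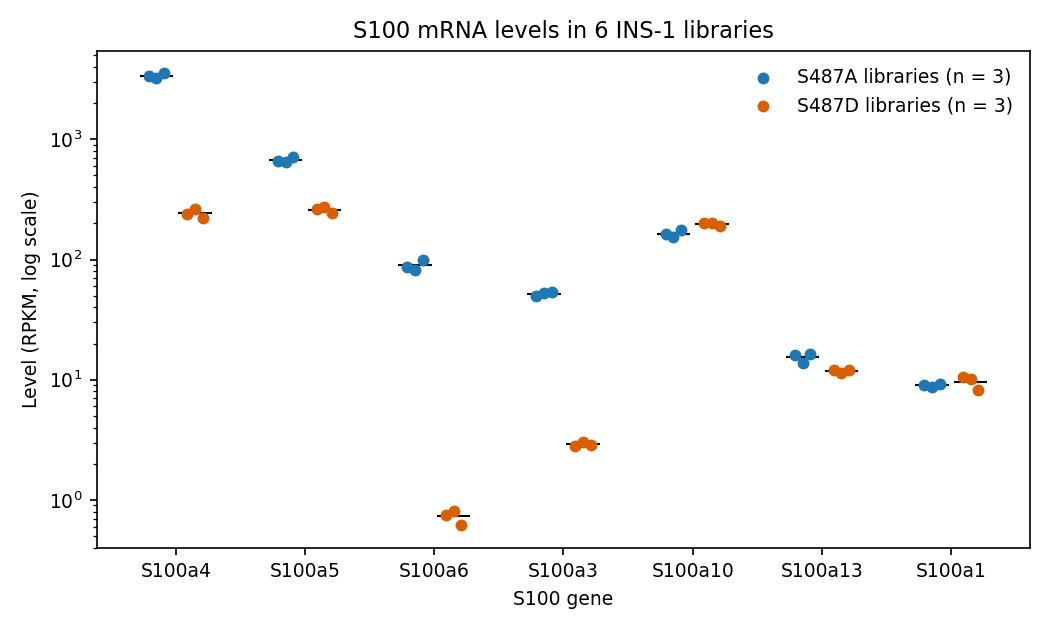
Level of the 7 S100 genes that reached the expression minimum, in RPKM on a log axis, with 1 point per library and a short line at the group mean. S100a4, S100a5, S100a6 and S100a3 are lower in all 3 S487D libraries, S100a10, S100a13 and S100a1 lie close together in both groups, and S100a6 drops from 82.0 to 98.7 RPKM to below 1 RPKM.

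On the log2(RPKM + 1) scale the changes were -3.80 for S100a4, -3.76 for S100a3, -1.38 for S100a5 and -5.70 for S100a6. Ranked from the largest fall among all 12527 genes tested, they stood 3rd, 4th, 99th and 1st. Their median was -3.78, that of S100a1, S100a10 and S100a13 0.09, and that of all genes tested -0.01. In mean RPKM, 23 of all genes tested were at least 10-fold lower in S487D, and S100a3, S100a4 and S100a6 were among them.

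**Figure D2:**
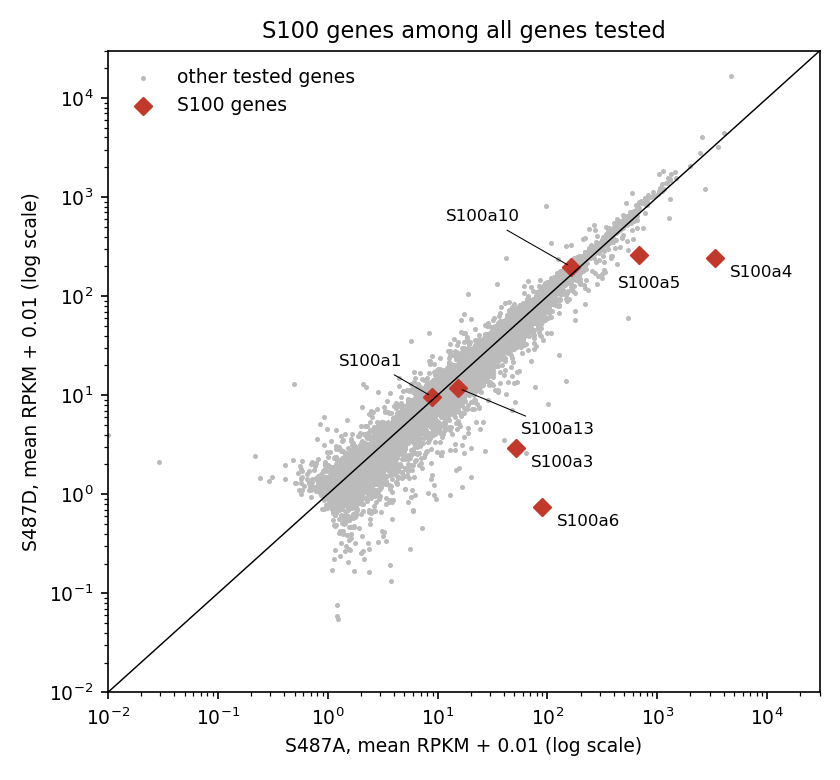
Mean level in S487A (horizontal) against S487D (vertical) for each gene tested, in RPKM plus 0.01 on log axes, with a line of equality and S100 genes as diamonds. S100a4, S100a6, S100a3 and S100a5 sit below the line, and S100a1, S100a10 and S100a13 lie within the band of the other genes.

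The 4 lowered neighbours moved together, so the 250 bases before their starts are printed here from RefSeq (GRCr8 build, read 5′ to 3′), matched by symbol. Of the 10 S100 genes, 8 had such an entry. Capitals mark the TATA box core TATAA, on either strand, and the GC box GGGCGG, bound by Sp1-type factors. The RefSeq starts were not mapped onto the rn6 rows, and their spacing differs. The stretches of S100a3 and S100a4 begin at 178384263 and 178388279, far closer together than their rn6 rows, which begin at 189955630 and 189997278. The distances from S100a4 to S100a5 and from S100a4 to S100a6 differ as well. Any of the 4 stretches may therefore not be the bases before the start of the counted row.
S100a3 (GRCr8 chr2:178384263-178384512, plus strand): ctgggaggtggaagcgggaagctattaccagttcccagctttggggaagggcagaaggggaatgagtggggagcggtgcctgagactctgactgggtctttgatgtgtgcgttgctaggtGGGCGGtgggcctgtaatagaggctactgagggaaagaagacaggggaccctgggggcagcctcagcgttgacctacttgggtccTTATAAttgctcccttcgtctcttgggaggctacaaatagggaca
S100a4 (GRCr8 chr2:178388279-178388528, plus strand): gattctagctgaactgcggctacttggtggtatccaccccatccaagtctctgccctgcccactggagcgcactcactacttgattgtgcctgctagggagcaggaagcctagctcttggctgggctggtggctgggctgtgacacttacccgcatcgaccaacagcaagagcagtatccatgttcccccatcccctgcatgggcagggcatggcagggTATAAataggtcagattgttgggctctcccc
S100a5 (GRCr8 chr2:178394871-178395120, plus strand): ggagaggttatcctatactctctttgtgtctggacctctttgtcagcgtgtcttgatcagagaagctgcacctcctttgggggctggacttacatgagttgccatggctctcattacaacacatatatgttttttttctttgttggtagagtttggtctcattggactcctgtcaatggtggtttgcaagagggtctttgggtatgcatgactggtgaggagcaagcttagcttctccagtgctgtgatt
S100a6 (GRCr8 chr2:178398287-178398536, plus strand): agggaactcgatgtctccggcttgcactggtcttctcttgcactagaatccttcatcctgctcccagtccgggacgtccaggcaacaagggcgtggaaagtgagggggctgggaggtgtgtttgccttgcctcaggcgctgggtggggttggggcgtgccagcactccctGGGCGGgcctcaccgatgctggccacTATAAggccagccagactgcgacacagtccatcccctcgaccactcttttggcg
The stretch before S100a4, the most abundant of these transcripts in S487A, held the full TATA box TATAAA at -31, counting back from the start. TATAA stood at -44 before S100a3, overlapping its copy on the other strand, and at -54 before S100a6. GGGCGG stood at -130 before S100a3 and at -80 before S100a6. S100a5, the least lowered gene, had none of these matches, and its stretch had 46.0% G and C against 56.8% to 62.4% in the other 3. The median of all promoters was 51.2%. GGGCGG also occurred before S100a11 and S100a13, outside the 4 genes, and not before S100a4. TATAA occurred before 3 of the 8 S100 genes with an entry, all among the 4. A link of these letters to the levels was not tested. Searched on both strands over the same length, TATAA occurred in 24.0%, TATAAA (which contains it) in 12.9% and GGGCGG in 30.5% of 33469 rat promoters. The CRE core TGACG (18.2% of promoters), the AP-1 site TGANTCA (6.34%) and the E-box CANNTG (65.5%) had no match in any of the 4 stretches, which says only that these letters are not in this window.

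Among the S100 genes outside these 4, S100a10 (chr2:193892589-193901236) was the most abundant. Its protein, p11, has lost calcium binding and sits in a stable complex with annexin A2. Its level was 163.6, 152.7 and 174.8 RPKM in S487A and 202.4, 199.9 and 191.8 RPKM in S487D. S100a10 was the only one of the 7 S100 genes above the expression minimum whose S487D libraries all lay above the S487A libraries, with means of 163.7 ± 11.04 and 198.0 ± 5.54 RPKM (SD, n = 3), 1.21-fold apart. RefSeq names 1 pseudogene of S100a10, which was not analysed here, so reads of that copy could have been assigned to S100a10 and its value is uncertain.

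S100a13 (chr2:189906022-189912516) takes part in the release of proteins such as Fgf1 that have no signal peptide. It was read at 16.1, 13.9 and 16.3 RPKM in S487A and at 12.1, 11.3 and 12.0 RPKM in S487D. The groups did not overlap, and the means of 15.4 ± 1.32 and 11.8 ± 0.451 RPKM (SD, n = 3) were 1.305-fold apart, on 232 and 167 reads.

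S100a1 (chr2:189900505-189905878, minus strand), known from heart and skeletal muscle as a regulator of calcium handling, was read at 8.99, 8.62 and 9.29 RPKM in S487A. In S487D it was read at 10.5, 10.2 and 8.14 RPKM. The groups overlapped: the highest and the lowest of the 6 values were both S487D libraries. S100a1 and S100a13 lie 143 bases apart on opposite strands. The library kit does not mark strand, but the 2 rows do not overlap.

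In all, 5 of these 7 S100 genes had S487D values wholly below the S487A values, 1 wholly above, and 1 overlapped. The share of all tested genes without overlap was 54.6%, and nothing is read from this count since the same contrast chose the genes.

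The other 3 S100 genes were at or under the floor and are given as reads. S100a16 (chr2:189923140-189928850) had 0, 1 and 2 reads in S487A and none in S487D. S100b (chr20:13130633-13142856), known from astrocytes and Schwann cells, had 3, 1 and 2 reads in S487A and 1, 0 and 1 in S487D. S100a11 (chr2:193863185-193868646), the partner of annexin A1, had a single read in 1 S487D library. RefSeq names 7 further copies of S100a11, of which 3 have rows here, all at 0, so the S100a11 value is uncertain. A further 8 S100 rows outside the 10 genes were also low. S100a7a, S100a8, S100p, S100vp and S100z were at 0 in all libraries, and S100a9, S100a14 and S100g reached at most 0.637 RPKM.

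The S100 genes together took 0.273 ± 0.0133% of assigned reads in S487A and 0.0433 ± 0.00248% in S487D (SD, n = 3). S100a3 to S100a6 alone took 0.262 ± 0.0126% and 0.0303 ± 0.00214%. S100a4 supplied 71.4% to 72.2% of S100 reads in S487A and 31.6% to 33.9% in S487D. S100a5 went from 14.0% to 14.3% in S487A to 34.3% to 34.5% in S487D, and S100a10 from 3.34% to 3.48% to 25.1% to 27.0%. The S100 mRNA of the S487A libraries was thus mostly S100a4, and that of the S487D libraries was shared by S100a5, S100a4 and S100a10.

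**Figure D3:**
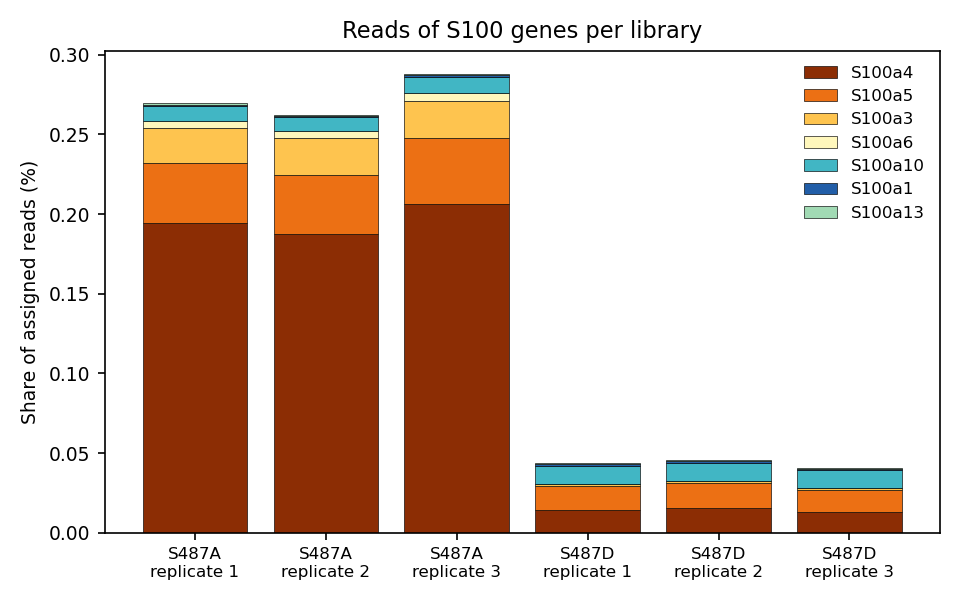
Share of each library's assigned reads that fell on S100 genes, in percent, stacked by gene for the 6 libraries. The S487A bars reach 0.262% to 0.288% and are mostly S100a4, and the S487D bars reach 0.0407% to 0.0456%.

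Per length, the order in S487A was S100a4, S100a5, S100a10, S100a6, S100a3, S100a13 and S100a1, and no 2 neighbours in this order overlapped. In S487D it was S100a5, S100a4, S100a10, S100a13, S100a1, S100a3 and S100a6. There S100a5 and S100a4 overlapped, at 244.2 to 271.6 and 219.9 to 264.7 RPKM, and the other neighbours did not. The ratio of S100a4 to S100a5 lay between 4.92 and 5.07 in S487A but between 0.901 and 0.975 in S487D, and that of S100a6 to S100a5 went from 0.127 to 0.137 down to 0.0025 to 0.0030. S100a3 and S100a6, above S100a13 and S100a1 in S487A, were the lowest of the 7 in S487D.

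The genes around S100a3 to S100a6 were then tested, to see how far a lower level reached along the chromosome. Within 1 Mb, 40 rows outside the S100 family were listed and 23 were tested, all before S100a3. The nearest of these, Snapin, ends 74.9 kb before the S100a3 row. After S100a6 there were 6 such rows, 5 of them at 0 and the highest at 0.549 RPKM, so that side gave no test. Of the 23 genes, 4 rose and 3 fell by limma, 30.4% against 44.4% of all genes tested, and 16 were not called. After median centring 7 rose and 1 fell, and with a read-based voom fit 6 rose and 2 fell. Their log2 changes ran from -0.36 to 0.41 with a median of -0.01, so no tested gene in this 1 Mb window changed as steeply as S100a5. Within 2 Mb, 58 genes were tested, and 9 rose and 16 fell, where 20.1% and 24.3% of all genes did. Changes there ran from -1.33, close to that of S100a5, to 0.41, with a median of -0.04.

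The risers included Tpm3, a tropomyosin of the actin cytoskeleton, at 90.1 ± 1.82 RPKM in S487A and 109.5 ± 1.47 in S487D (log2 change 0.28 ± 0.04 SE, limma adjusted p = 0.000249). Il6r, the interleukin-6 receptor, went from 7.56 ± 0.26 to 10.4 ± 0.0848 RPKM (log2 change 0.41 ± 0.06, adjusted p = 0.000305). Ube2q1, a ubiquitin-conjugating enzyme, rose by 0.19 ± 0.04 on the log2 scale (adjusted p = 0.00716). The fourth riser, Rps27 of the small ribosomal subunit, had an adjusted p of 0.0119 and is named here although it was outside the naming rule.

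The 3 genes called lower were Npr1, a natriuretic peptide receptor, Hax1, a mitochondrial survival factor, and Ints3 of the Integrator complex. Npr1 went from 2.49 ± 0.127 to 1.79 ± 0.261 RPKM (log2 change -0.33 ± 0.10 SE, limma adjusted p = 0.0199). The changes of Hax1 and Ints3 were -0.14 and -0.12, with adjusted p of 0.0354 and 0.0427. These calls depended on the setting. Over 14 or 15 other settings, adjusted p ran from 0.00356 to 0.0948 for Npr1, from 0.029 to 0.213 for Hax1 and from 0.0191 to 0.21 for Ints3, and none of the 3 was called without S487A replicate 2. The window around S100a1, S100a13 and S100a16 holds the same 23 tested genes.

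**Figure D4:**
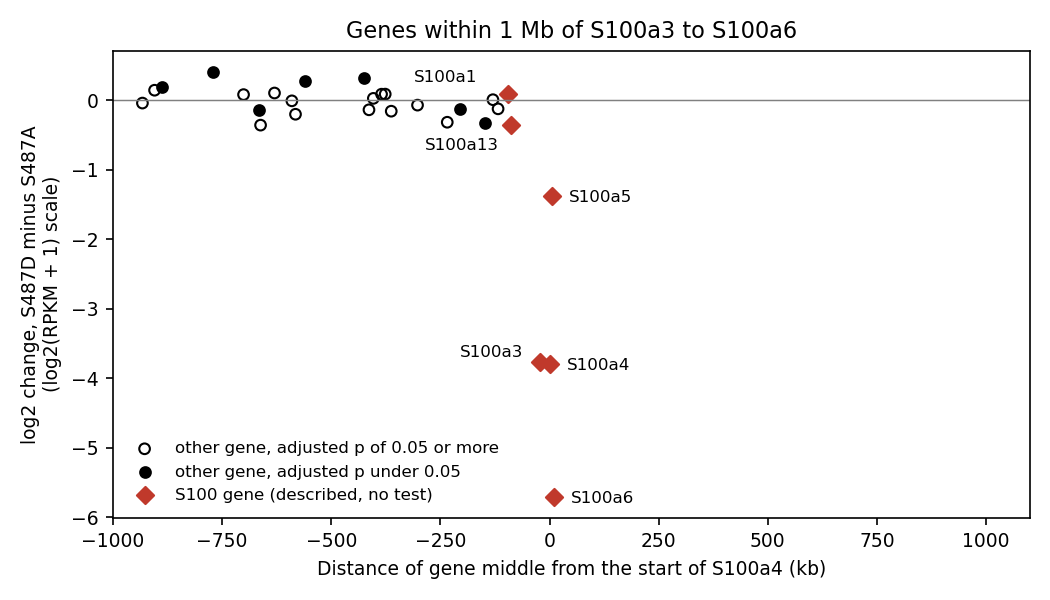
Log2 change from S487A to S487D, on the log2(RPKM + 1) scale, of each tested gene within 1 Mb of S100a3 to S100a6, by the distance of its middle from the start of S100a4 in kb. Other genes lie between -0.36 and 0.41 and only on the left side, and S100a3 to S100a6 lie at -1.38 to -5.70.

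S100a10 and S100a11 lie 3.88 Mb further along chromosome 2. Their 1 Mb windows share the same 2 tested genes, neither of which was called by limma. Around S100b, on chromosome 20 and barely read itself, 6 of 19 tested genes rose (31.6%, against 20.1% of all genes) and 6 fell (31.6%, against 24.3%), with a median log2 change of 0.05. Ggt1, a gamma-glutamyltransferase, went from 0.208 ± 0.0386 to 2.40 ± 0.65 RPKM (limma adjusted p = 2.36e-05). Ggt1 entered the test through its S487D libraries alone, where it was high. Its log2 change was 1.48, and 3.45 with a pseudocount of 0.01. Lrrc75b (log2 change 0.87, adjusted p = 3.81e-05) and Ddt (0.26, adjusted p = 0.00291) were also higher. Col6a2, a collagen VI chain, went from 11.3 ± 0.617 to 4.10 ± 0.109 RPKM (adjusted p = 4.96e-07), with the folate carrier Slc19a1 (-0.98, adjusted p = 3.99e-06) and the RNA-binding Pcbp3 (-0.65, adjusted p = 1.27e-05) also lower.

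Known partners of S100 proteins were read from lists by role. The lists were chosen with earlier results of these data known, so their shares beside those of all genes are a description. Annexins bind membranes in the presence of calcium, and several are held by S100 dimers. Of 12 annexins, 7 were tested: 1 rose (14.3%, against 20.1% of all genes), 4 fell (57.1%, against 24.3%) and 2 were not called, with a median log2 change of -0.26 against -0.01 for all genes. Anxa2, the partner of S100a10, was read at 8.64, 9.50 and 9.67 RPKM in S487A and at 18.2, 17.6 and 16.2 RPKM in S487D. The groups were apart by 0.84 ± 0.06 (SE) on the log2 scale (limma adjusted p = 7.80e-06), the same direction as S100a10. Anxa11, known to bind S100a6, was lower in S487D, at 72.9 ± 1.53 against 99.2 ± 1.29 RPKM, a change of -0.44 ± 0.04 on the log2 scale (adjusted p = 1.30e-05). Anxa4 (-0.37, adjusted p = 0.00052) and Anxa5 (-0.34, adjusted p = 0.00122) fell too. Anxa6 was also called lower (adjusted p = 0.0246), but lost the call in 5 of 14 other settings, among them quantile normalization, median centring and the fits without S487A replicate 2 or S487D replicate 2 (range 0.016 to 0.12). Anxa1, the partner of the unread S100a11, had at most 0.0576 RPKM.

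Of 24 genes for partners inside the cell, 17 were tested, and limma called 4 higher (23.5%, against 20.1% of all genes) and 7 lower (41.2%, against 24.3%), with a median log2 change of -0.07. Among targets of S100a4, the myosin heavy chain Myh10 was lower in S487D, at 73.3 ± 1.34 against 92.9 ± 2.21 RPKM (SD, n = 3; log2 change -0.34 ± 0.04 SE, limma adjusted p = 9.17e-05). Ppfibp1, the liprin beta-1 gene, fell from 34.2 ± 0.888 to 25.0 ± 0.924 RPKM (-0.44 ± 0.05, adjusted p = 6.23e-05). The other myosin genes were Myh14, at 24.1 ± 1.11 and 25.3 ± 1.09 RPKM and not called, and Myh9, at no more than 0.113 RPKM. Mdm2, a ubiquitin ligase gene, rose from 17.7 ± 0.151 to 24.1 ± 1.23 RPKM (0.42 ± 0.05, adjusted p = 0.000142).

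The potassium channel Kcnk3, which p11 binds, rose by 0.25 ± 0.06 on the log2 scale (limma adjusted p = 0.00942). The microtubule protein Mapt, a target of S100b, fell by 0.29 (adjusted p = 0.000459). Ppp5c was also called higher, and Cacybp, Fgf1, Iqgap1 and Ryr2 lower. Fgf1 had the largest log2 change of this list, -0.64 ± 0.10 SE (limma adjusted p = 0.000817). It went from 1.97 ± 0.305 to 0.899 ± 0.0416 RPKM and reached the expression minimum through its S487A libraries alone. The calls of Ppp5c and Ryr2 depended on the setting: Ppp5c lost its call in 5 of 15 others (adjusted p 0.00222 to 0.0854), among them those without S487A replicate 1, S487D replicate 1 or S487D replicate 2. Ryr2 lost its call in 2 of 14 (2.21e-05 to 0.097), with quantile normalization and without S487A replicate 2. Cacybp, the S100a6 partner, was at 88.7 ± 5.64 RPKM in S487A and 76.0 ± 3.10 in S487D. Partner transcripts thus changed in both directions. Each changed by far less than S100a3, S100a4 and S100a6, but those were set apart for their steep fall, so nothing is read from that difference.

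Of 8 receptors and partners outside the cell, 2 were tested and 1 was called. Ager was read at 2.74, 3.05 and 2.94 RPKM in S487A and at 2.27, 2.22 and 1.79 RPKM in S487D (log2 change -0.34 ± 0.09 SE, limma adjusted p = 0.0131). The call was lost with quantile normalization (adjusted p = 0.0767) and with a read-based voom fit (0.0556), in a range of 0.00816 to 0.0767 over 14 settings. Bsg, the basigin gene, was abundant at 430.3 ± 19.7 and 450.8 ± 7.31 RPKM and was not called, although median centring called it higher. Tlr4 and Plaur had at most 0.0317 RPKM.

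Other EF-hand genes, for calcium sensors and buffers outside the S100 family, were counted beside them. Of 34, 28 were tested, and limma called 10 higher (35.7%) and 5 lower (17.9%), with a median log2 change of 0.10. The number called higher depended on the setting, from 8 without S487D replicate 1 to 14 with median centring. Capn1 and Rcn2, both called higher, each lost the call in 3 of 15 other settings. Hpca, a neuronal calcium sensor, was higher in S487D, at 28.0 ± 2.02 against 14.3 ± 0.698 RPKM (SD, n = 3; a log2 rise of 0.92 ± 0.06 SE, limma adjusted p = 3.61e-06). Pef1 (0.30, adjusted p = 0.000186) and the calmodulin gene Calm2 (0.29, adjusted p = 0.000456) rose less. Nucb2, which encodes the precursor of nesfatin, fell from 288.4 ± 6.68 to 159.6 ± 2.92 RPKM (-0.85 ± 0.04, adjusted p = 1.80e-07). Rcn1 of the endoplasmic reticulum (-0.45, adjusted p = 2.48e-05) and the sensor Hpcal1 (-0.45, adjusted p = 0.000109) fell as well. Over the 4 lists, 15 of 54 tested genes rose (27.8%, against 20.1% of all genes) and 17 fell (31.5%, against 24.3%). On the log2(RPKM + 1) scale of the test the changes ran from -0.85 to 0.92. As a ratio of mean RPKM the sensor gene Vsnl1 changed more than Hpca, from 0.804 ± 0.0708 to 2.26 ± 0.769 RPKM. Vsnl1 reached the expression minimum through its S487D libraries alone.

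**Figure D5:**
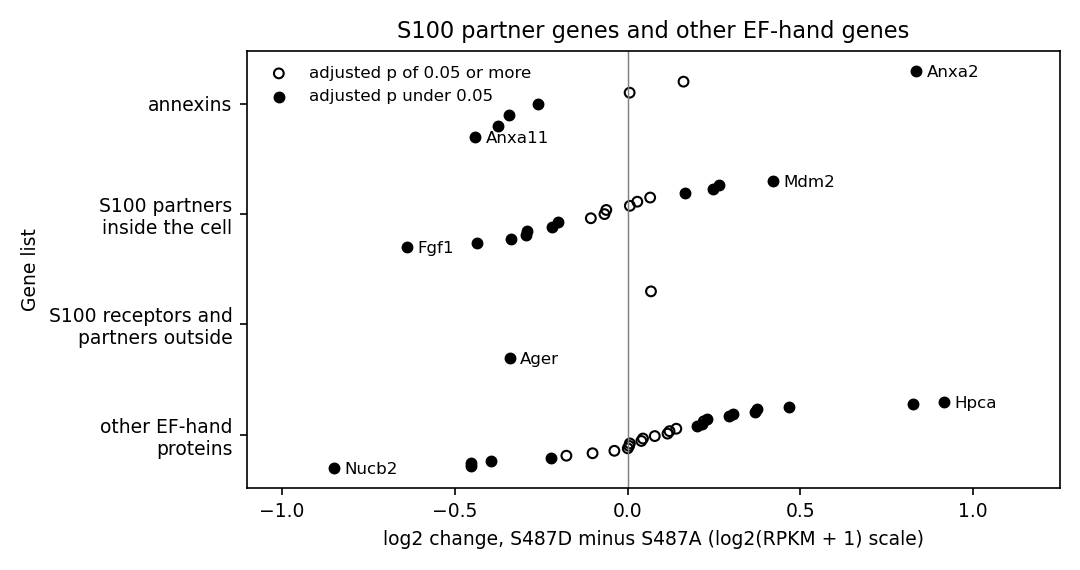
Log2 change from S487A to S487D, on the log2(RPKM + 1) scale, of each tested gene in the lists of annexins, S100 partners inside the cell, receptors and partners outside, and other EF-hand proteins. Filled points had an adjusted p under 0.05 by limma, and all values lie between -0.85 and 0.92, with Anxa2 and Hpca furthest to the right.

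The genes whose pattern over the 6 libraries lay nearest to S100a4 were found by the Euclidean distance of log2(RPKM + 1), after subtracting each gene's S487A mean. On this scale S100a3 was nearer, at 0.201, than any gene outside the family, while S100a6 was at 3.31 and S100a5 at 4.19. The rank of S100a3 depends on the scale, which shrinks changes of low genes. With a pseudocount of 0.01 its log2 change was -4.16, against -3.80 for S100a4. Distances were not computed on that scale. Outside the family the nearest was Gast, the gastrin gene, at 0.609, which went from 101.7 ± 4.97 to 8.14 ± 0.558 RPKM. Krt80, a keratin gene, was at 0.677, and Ifi27l2b, known from interferon responses, at 0.958. Muc13, a membrane mucin gene, followed at 1.11 and Rnd1, for a small GTPase that loosens cell adhesion, at 1.12. These genes lie on chromosomes 10, 7, 6, 11 and 7, and with 2 groups the distance mostly reflects the size of the S487D difference.

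S100 genes are also used as markers of other cells, such as S100a4 of fibroblasts, S100a8 and S100a9 of myeloid cells and S100b of glia. Of 10 fibroblast and mesenchymal markers, Thy1 alone reached 1 RPKM in at least 3 libraries. Pdgfra was at 0.811 to 1.17 RPKM and Acta2 at 0.28 to 0.528 RPKM, and Col3a1, Dcn, Lum and Pdgfrb were at 0 in every library. Their summed level was 66.4 to 70.3 RPKM in S487A and 96.8 to 104.3 RPKM in S487D, nearly all Thy1, so it was higher where S100a4 was lower. None of 8 macrophage and leukocyte markers reached that level (sums of 0.405 to 1.12 and 0.554 to 1.26 RPKM), with Cd68 at 0.383 to 0.996 RPKM and Itgam, Ptprc and Tyrobp at 0. None of 6 endothelial markers did (0.238 to 0.516 and 0.305 to 0.327 RPKM), with Cdh5 and Emcn at 0. Of 7 glial markers Ngfr alone reached it, with Foxd3 at 0, and their sum was 4.95 to 5.52 and 8.71 to 8.76 RPKM.

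The summed duct cell markers were lower in S487D, as S100a3 to S100a6 were. Of 7, Epcam, Krt7 and Muc1 reached 1 RPKM in at least 3 libraries and Spp1 was at 0, and the sum was 369.6 to 387.7 RPKM in S487A and 220.0 to 229.8 RPKM in S487D. Krt7 made most of the difference, at 217.3 ± 9.46 and 82.7 ± 2.00 RPKM. Of the 7 genes, 5 had a lower mean in S487D, 3 of them without overlap. The groups did not overlap for 54.6% of all tested genes, so nothing is read from counts of markers without overlap. Sox9 had a higher mean, at 0.128 ± 0.0867 and 0.195 ± 0.0168 RPKM, with overlap. Of the beta cell markers, Nkx6-1 was also lower in S487D, at 10.1 ± 0.531 and 4.42 ± 0.434 RPKM. Chga (3528 ± 79.1 and 3224 ± 80.7) and Neurod1 (93.9 ± 0.755 and 85.1 ± 4.27) were lower too. Ins1, Ins2, Iapp, Mafa, Slc2a2 and Pdx1, 6 of the 10, were higher in S487D without overlap. Among them Mafa went from 35.0 ± 1.01 to 132.7 ± 10.7 RPKM and Ins2 from 107.7 ± 1.38 to 341.1 ± 15.8. The part of these markers in the S100 values was not tested, and in a bulk sample fewer cells of a type and less RNA per cell cannot be told apart.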

How the data were processed

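Total RNA of 6 INS-1 samples was made into TruSeq libraries, a kit that does not mark strand, per the labels' protocols. bcl2fastq 2.17, cutadapt and TopHat2 2.0.13 are listed with the rn6 build, per the submitters' processing notes. The sources used here do not give the read counter or annotation. Deposited by the authors were RPKM values for each gene, with rn6 positions and gene lengths, per the file headers. Multiplied by length, all values below 2000 reads (100%) and at least 99.95% overall came out as whole reads, with a tolerance of 0.05. Intervals and floors cover counting error only.

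Groups came from sample titles. The members and lists were chosen with earlier results of these data known. The test was limma 3.58.1 in R 4.3.3, fitted to log2(RPKM + 1) with an intensity trend. It took every gene that reached RPKM 1 in 3 or more libraries, and its two-sided p-values were adjusted by Benjamini-Hochberg across these genes. An exact permutation test of 3 against 3 libraries cannot give a p below 0.1 and was not used. Named genes were the S100 genes, up to 3 called genes in each direction with the smallest p from each partner list and window, and the 5 genes nearest S100a4, except 1 gene that is not reported here; other list members are named for their role or count, after their values were seen. Alternatives covered pseudocounts of 0.1 and 0.01, no filter, a minimum of RPKM 5, quantile normalization, median centring, no trend, a replicate block, voom on the recovered reads with a trimmed mean scaling written for this purpose, windows of 0.5 and 2 Mb, and leaving out each library. The fitting code was tested on simulated data.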

Additional observations from a re-analysis of the deposited data

How the results depend on the processing

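The log2 changes of the 7 S100 genes above the expression minimum kept their sign in all 15 alternatives. S100a6, near the floor in S487D, ranged from -6.92 (pseudocount 0.01) to -5.63, S100a3 from -4.16 to -3.70 and S100a1 from 0.02 to 0.19. The number of genes called near S100a3 to S100a6, 7 of 23, became 3 of 30 without the filter on low values. It was 3 of 12 within 0.5 Mb and 25 of 58 within 2 Mb. Leaving out 1 library gave 4 to 7 there (4 without S487A replicate 2), 29 to 33 of the list genes and 4650 to 4985 of all genes.

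The replicate numbers of the groups share only a number: deviations of same-numbered libraries correlated at 0.00354, -0.0598 and 0.00998, and no library correlated best with its own number. With a replicate block 5335 genes were called, with 32 in the lists and 6 near S100a3 to S100a6. Depth limits S100a6 in S487D and leaves S100a11, S100a16 and S100b without a fold.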
